A study of Mus musculus with 11 samples.

Results

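The mouse genes Cd28, Ctla4 and Icos lie close together on chromosome 1 and encode related receptors that tune T cell activation. Transcription factor binding was described here over the mm9 window chr1:60760000-61070000, a stretch of 310 kb set by coordinates to hold the 3 genes and a very strong Cbfb position already known from these data. The window held 533 of the 1059098 binding positions deposited for 5 libraries, and 8 of the 2886 Foxp3 intervals. Regulatory T (Treg) cells, sorted as Foxp3-positive CD4+ T cells, gave the Elf1, Ets1 and Cbfb libraries and the Foxp3 list. CD4+ Foxp3-negative T cells, called CD4 cells below, gave one Elf1 and one Ets1 library. All cells were taken directly from lymph nodes and spleen of mice about 8 weeks old and were separated by GFP, which reported Foxp3, and the labels give no other genotype, treatment or strain. Every position list came from 1 library, so no difference between cell types below has a replicate check and no p-value is given. The Foxp3 list pooled its replicates.

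Cd28 is the receptor that supplies the costimulatory signal to naive T cells when it meets Cd80 or Cd86 on antigen-presenting cells. Ctla4 binds the same ligands more tightly and restrains T cells, and Treg cells carry it constitutively. Icos is a costimulatory receptor that appears after activation and binds Icosl. Foxp3 is the transcription factor that defines Treg cells. Elf1 and Ets1 belong to the ETS family, whose members recognise DNA with a GGAA core, and Cbfb is the partner that stabilises Runx proteins on DNA without contacting it.

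In the RefSeq gene table of build GRCm38.p6 the order on the chromosome was Cd28, Ctla4, Icos. Besides Ctla4, that table listed 8 genes between Cd28 and Icos, 4 of them long non-coding RNAs and 4 pseudogenes. No gene limits in mm9 were used and no coordinate was moved between builds, so the positions below are given by coordinate and are not assigned to a gene, promoter, exon or intron. The promoter table matched 1 of the 3 genes, Ctla4. Its 250 bases before the transcript start are shown because ETS factors were mapped over the window set to hold this gene. They lie at chr1:60908775-60909024 on the plus strand of GRCm38.p6, a coordinate that cannot be set against the mm9 positions. Capitals mark the ETS core GGAA, here on the opposite strand as TTCC.
Ctla4: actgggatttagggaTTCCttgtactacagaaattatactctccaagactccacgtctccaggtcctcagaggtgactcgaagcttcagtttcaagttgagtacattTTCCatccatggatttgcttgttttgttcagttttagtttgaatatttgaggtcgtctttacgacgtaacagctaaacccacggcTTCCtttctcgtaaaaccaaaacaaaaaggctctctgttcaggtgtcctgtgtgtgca
The core occurred 3 times on both strands together, and 93.4% of 32851 promoter stretches of the same length held at least 1, with a median of 3. The Runx letters TGTGGT and TGCGGT, searched on both strands, did not occur in these bases and were present in 18.6% of all promoter stretches. A match is a description of the letters and not of binding.

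Every library held more positions in the window than its average over the genome. At a false discovery rate (FDR, the q-value the authors' files give each position) of at most 0.01, the window held 95 Treg Elf1, 70 Treg Ets1, 38 Treg Cbfb, 41 CD4 Elf1 and 40 CD4 Ets1 positions. The genome was divided into 8505 tiles of 310 kb, and the mean tile held 18.5, 7.24, 14.3, 6.28 and 4.93 positions of these libraries in the same order. Relative to the mean tile the window held 9.67 times as many Treg Ets1 and 8.12 times as many CD4 Ets1 positions, 5.14 times as many Treg Elf1 and 6.53 times as many CD4 Elf1 positions, and 2.66 times as many Cbfb positions. Between 4 tiles (Treg Elf1) and 42 tiles (CD4 Ets1) held as many or more. The Foxp3 list had 8 intervals here against a mean of 0.339 per tile, and 16 tiles held as many or more.

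A larger share of the deposited positions passed the FDR limit in the window than in the genome for the ETS factors. It was 90.5% for Treg Elf1 against 84% genome-wide, 49.0% for Treg Ets1 against 27.3%, 39.0% for CD4 Elf1 against 22.2% and 30.5% for CD4 Ets1 against 17.4%. For Treg Cbfb the shares were 77.6 and 75.2%. Passing positions were not all strongly enriched. Their median fold enrichment, the authors' maximum likelihood estimate, was 5.71 in Treg Elf1 (genome median 5.71), 4.28 in Treg Ets1 (3.71), 3.88 in Treg Cbfb (4.36), 3.64 in CD4 Elf1 (4.97) and 4.77 in CD4 Ets1 (4.61). The lower bound of the fold reached 1 at 69 of 95 Treg Elf1 positions (72.6%, genome 53%) and 45 of 70 Treg Ets1 positions (64.3%, genome 42.3%), shares above those of the genome. It did so at 19 of 41 CD4 Elf1 positions (46.3%, genome 55.3%), a share below the genome's. For 13 of 38 Treg Cbfb (34.2%, genome 37%) and 25 of 40 CD4 Ets1 positions (62.5%, genome 61.2%) the shares were near the genome's.

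**Figure D1:**
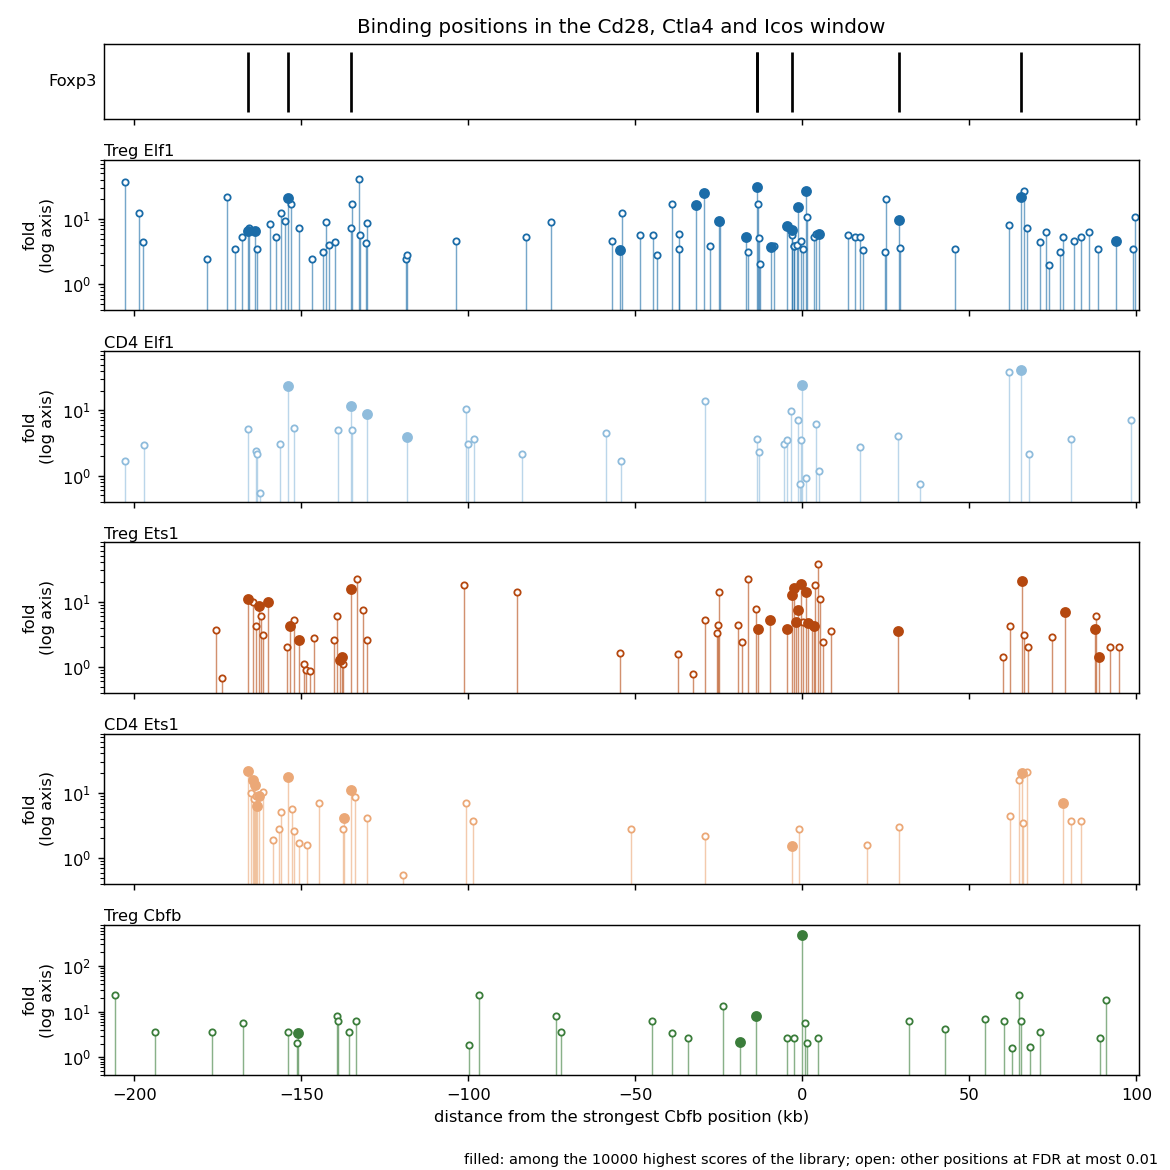
Positions at an FDR of at most 0.01 in each library, by distance in kb from the strongest Cbfb position (x axis) and fold enrichment on a log axis (y axis), with the 8 Foxp3 intervals as bars above. Filled points are among the 10000 highest scores of their library, and the Treg Cbfb point at 0 stands at 481-fold.

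Part of the binding lay in a few stretches. When positions among the 20000 highest scores of any library were joined at gaps of up to 5 kb, 13 runs resulted, and 2 of them were longer than 10 kb. The first stretch ran from 60795470 to 60818409 and held 2 Foxp3 intervals. The middle stretch ran from 60950426 to 60977644 and held 3. Of a library's passing positions in the window, the first stretch held between 10.5% (Treg Cbfb) and 37.5% (CD4 Ets1). For the middle stretch the share was between 5% (CD4 Ets1) and 30% (Treg Ets1). At the other end of the window a short run from 61031012 to 61035307 carried 1 Foxp3 interval and some of the highest Ets1 scores. The rule for the runs and the choice of the long ones were made after the values had been seen.

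Most joined sites of the window held 1 library, and a small set held 4 or 5. Positions and Foxp3 intervals at most 200 bp apart were joined into 179 sites. Of these, 127 (70.9%) held 1 library and 15 (8.38%) held 4 or 5. The sites with a Foxp3 interval numbered 7, all of them among those 15. An interval has a width of its own and joins positions on both sides, so such sites can gather more libraries by construction. A site with all 5 libraries occurred once, at Foxp3 interval 8. Sites were built only inside the window, so these counts have no genome share and show nothing particular to the locus.

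The 8 Foxp3 intervals, each 200 bp wide, started at 60803040, 60815158, 60833868, 60955446, 60955552, 60965823, 60997892 and 61034614. Intervals 4 and 5, counted along the chromosome, overlapped and share their neighbouring positions. Within 200 bp, Treg Elf1 had a position at 8 of the 8 intervals, Treg Ets1 at 7, Treg Cbfb at 4, CD4 Elf1 at 8 and CD4 Ets1 at 6. Over all 2886 intervals of the genome the shares were 85.2, 83.5, 28.1, 88.9 and 89% in that order. Exactly 4 libraries were present at 7 of the intervals (87.5%), against 50.3% of intervals genome-wide, and all 5 at 1 (12.5%), against 20.7%. The list holds only 8 intervals here, 2 of which overlap, and nothing particular to the locus is read from these counts.

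At Foxp3 interval 1 Ets1 was among the highest scores of both cell types. The Treg Ets1 position at 60803294 ranked 158 of 226148 by score, with a fold enrichment of 11.1 (lower bound 4.93). The CD4 Ets1 position lay 32 bp away at 60803262 and ranked 198 of 242086, with 21.4-fold (lower bound 9.62). Elf1 was present there at 6.59-fold in Treg and 5.22-fold in CD4, and the Cbfb list had no position within 1 kb. This was the highest Ets1 score of the window in CD4 cells.

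Elf1 was high at interval 2 in both cell types. Treg Elf1 at 60815221 had its highest score of the window, rank 1713, with 21.0-fold (lower bound 7.16), and CD4 Elf1 at 60815277 had 23.7-fold (lower bound 6.74). CD4 Ets1 had 17.4-fold at 60815272, while the Treg Ets1 position at 60815159, 8.39-fold, missed the FDR limit at 0.0154. A Cbfb position of 3.66-fold with a lower bound of 0.667 lay at 60815210. Interval 3 carried Elf1 and Ets1 of both cell types within 43 bp of its centre. The Elf1 fold there was 7.34 in Treg and 11.6 in CD4. The Ets1 fold was 15.3 in Treg and 10.9 in CD4.

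The overlapping intervals 4 and 5 had the highest Elf1 enrichment of any Foxp3 interval here in Treg cells. Treg Elf1 at 60955452 reached 30.8-fold (lower bound 10.9, rank 2749), and CD4 Elf1 lay 5 bp away with 3.64-fold (lower bound 0.875, rank 17428). The Treg over CD4 log2 ratio was 3.08, and 141 of the 17926 Elf1 positions shared across the genome (0.787%) had a ratio as high. Treg Ets1 had a position on each side, 7.59-fold at 60955323 (lower bound 2.22) and 3.81-fold at 60955773 (lower bound 1.39), and the CD4 Ets1 position at 60955694 just missed the FDR limit at 0.0102. Cbfb ranked 3343 of its library at 60955389, with 7.84-fold (lower bound 1.49).

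Interval 6 had the highest Treg over CD4 ratio of the 14 shared Ets1 positions. The Treg Ets1 position at 60966001 ranked 147 of its library, the highest Ets1 rank in the window, with 12.8-fold (lower bound 6.09). The CD4 Ets1 position 31 bp away at 60965970 ranked 9407, with 1.54-fold (lower bound 0.576). The log2 ratio of Treg over CD4 was 3.05, and 42 of 11551 shared Ets1 positions (0.364%) had one as high. The Elf1 fold there was lower in Treg, 6.89 at 60965948, than in CD4, 9.61 at 60965815.

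At interval 7 all 4 ETS lists had positions. Elf1 had 9.56-fold in Treg (lower bound 4.07) against 4.02-fold in CD4 (lower bound 1.24). Ets1 had 3.60-fold in Treg at 60997783 (lower bound 0.776) and 2.98-fold in CD4 at 60998103 (lower bound 1.16). These Ets1 positions lay 320 bp apart, on opposite sides of the interval's centre, and are not a shared position. Interval 8 was strong in every ETS library. Treg Ets1 at 61034794 ranked 238 with 20.8-fold, and CD4 Ets1 at 61034821 ranked 328 with 19.8-fold, a log2 ratio of 0.07. Treg Elf1 at 61034685 had 22.0-fold and CD4 Elf1, 5 bp away, 41.4-fold, its highest score and fold of the window. Cbfb was also present, at 6.10-fold with a lower bound of 0.996.

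**Figure D2:**
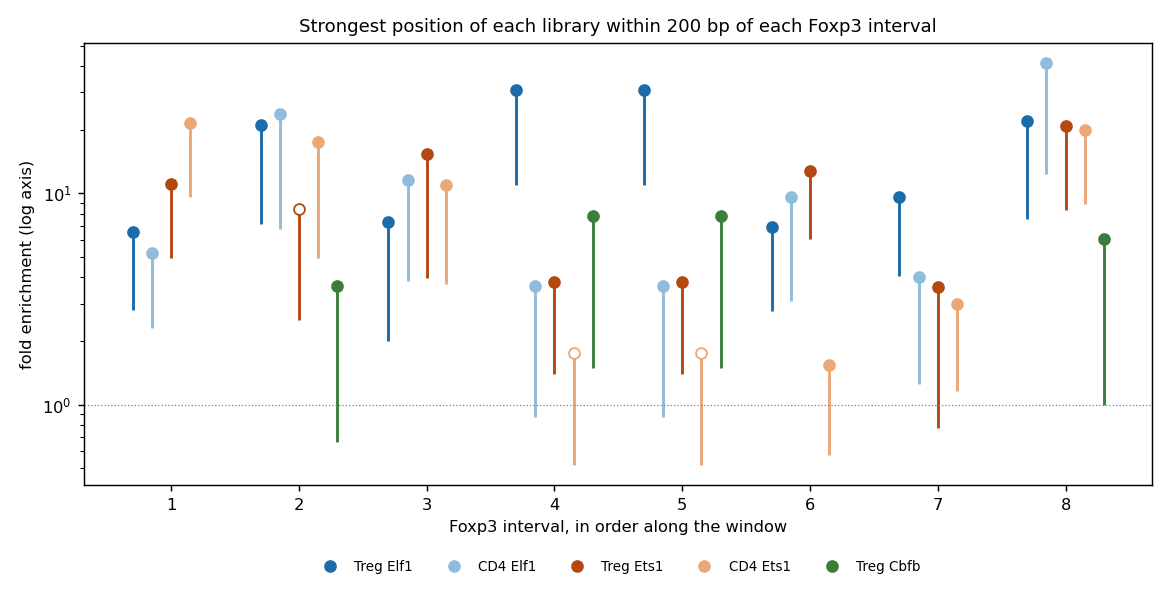
Fold enrichment, on a log axis, of the strongest position of each library within 200 bp of each of the 8 Foxp3 intervals, in order along the window. Points are the maximum likelihood estimate, lines run down to the lower bound, and open points miss the FDR limit of 0.01. The Ets1 folds of the 2 cell types stand close together at intervals 3, 7 and 8, though at interval 7 the positions lie 320 bp apart. They stand far apart at interval 6, at 12.8-fold in Treg and 1.54-fold in CD4.

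Most Ets1 positions of the middle stretch came from the Treg library. Treg Ets1 had 21 positions at an FDR of at most 0.01 there and CD4 Ets1 had 2, while in the first stretch Treg Ets1 had 12 and CD4 Ets1 had 15. Among the 10000 highest scores of each library the numbers were 11 in Treg and 1 in CD4 in the middle stretch, and 5 in Treg and 6 in CD4 in the first. The CD4 Ets1 library was not empty in the middle stretch: 16 positions of any FDR had been deposited, against 28 for Treg Ets1. The CD4 Ets1 positions that missed the limit there had FDR values from 0.0102 to 0.136. For Elf1 the middle stretch held 22 Treg and 12 CD4 positions, and the first stretch 14 Treg and 7 CD4 positions. The lists differ in length: over the genome 61761 Treg and 42040 CD4 Ets1 positions passed the limit. For Elf1 these numbers were 157731 in Treg and 53580 in CD4, so the Elf1 counts are not read as an excess in Treg. Since these stretches were picked with the values known, their contrast is a description.

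The Treg Ets1 positions of the middle stretch included 4 of the 6 that ranked among the 1000 highest of their library in this window. Besides the one at Foxp3 interval 6 they lay at 60967675 (rank 488, 7.44-fold), 60968699 (rank 737, 18.5-fold) and 60970308 (rank 600, 14.0-fold). None of these 3 had a Foxp3 interval within 1 kb. The nearest CD4 Ets1 positions lay at 357, 53 and 19 bp with 2.83, 2.83 and 0.944-fold, and the last 2 of these missed the FDR limit, at 0.0389 and 0.0157. Treg Elf1 had its own highest fold outside both stretches, 41.6 at 60836324 (lower bound 6.63). The most enriched Treg Ets1 position of the window, 37.9-fold at 60973774, ranked only 33748 by score and had a lower bound of 6.18.

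**Figure D3:**
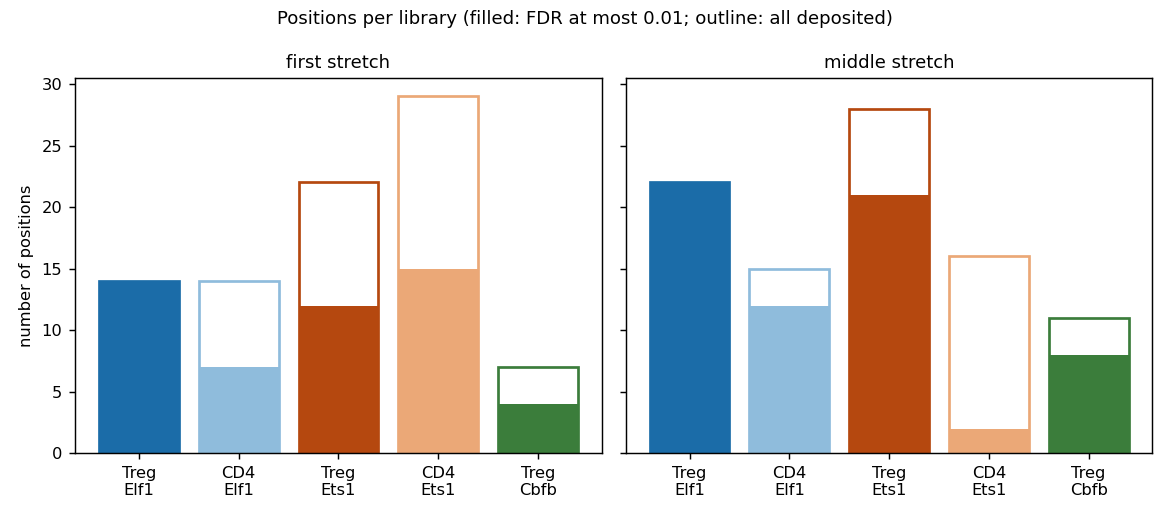
Number of positions (y axis) of each library in the first and the middle stretch, filled for an FDR of at most 0.01 and outlined for all deposited positions. In the middle stretch Treg Ets1 had 21 passing positions and CD4 Ets1 had 2, and in the first stretch 12 and 15. Over the genome they had 61761 and 42040.

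The Cbfb library had the highest score of its whole list in the middle stretch. The position at 60969139 had a score of 373 and a fold enrichment of 481, with a lower bound of 183. By score and by lower bound it ranked 1 of 161760, and by fold it ranked 2. The second highest score of the library, 93.8 on chromosome 4 at 70039223, was lower by a factor of 3.98 and had only 2.39-fold enrichment. Across the genome 18 Cbfb positions reached 50-fold and 7 reached 100-fold. The only position with a higher fold, 520-fold with a lower bound of 98.7, lay on chromosome X at 7170482. The position in the window is named in the rule that set it, so its rank is a description.

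This Cbfb position belonged to one of the 15 sites with at least 4 libraries, together with Elf1 of both cell types and Treg Ets1. No Foxp3 interval lay within 1 kb, and the nearest was 3116 bp away. Elf1 in Treg had 3.53-fold at 112 bp. Ets1 in Treg had 4.82-fold at 281 bp and its stronger position of 18.5-fold at 440 bp, and the nearest CD4 Ets1 position, at 493 bp, missed the FDR limit. The closest was Elf1 in the Foxp3-negative cells, whose position at 60969147, 8 bp away, had 24.2-fold (lower bound 8.64, rank 6746). The Treg over CD4 log2 ratio of Elf1 was -2.77 at this place, and 226 of 17926 shared positions (1.26%) had one as low. High CD4 Elf1 was not limited to this place. Within 200 bp of the chromosome X position of higher Cbfb fold, CD4 Elf1 reached 91.1-fold, and the Treg Elf1 list had no position. For Ets1 it was the other way there, with 12.6-fold in Treg and no position in CD4. The Cbfb positions ranked 2, 3 and 5 by score differed. Elf1 of both cell types was present within 200 bp of each, with CD4 folds of 1.90, 4.71 and 2.78. A Cbfb library of CD4 cells was not analysed here, so the Cbfb signal has no counterpart to be set against.

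**Figure D4:**
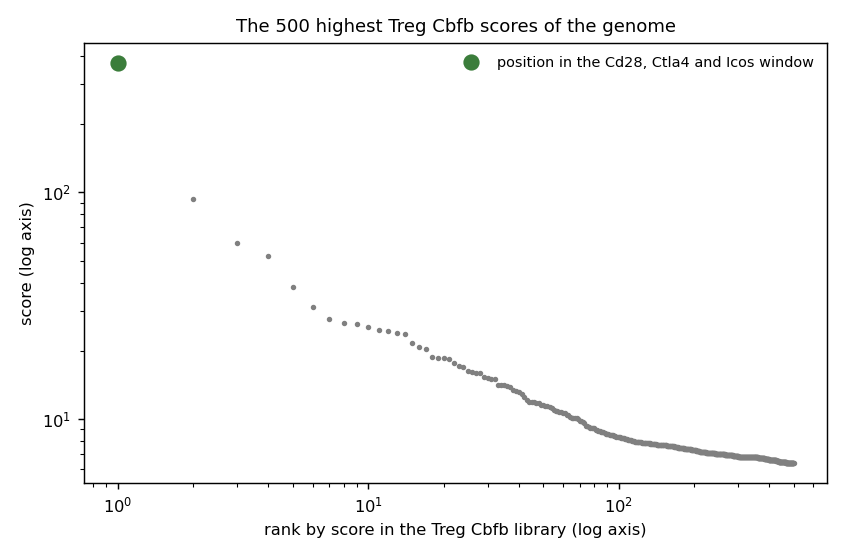
Score (y axis, log) of the 500 highest Treg Cbfb positions of the genome against their rank (x axis, log). The position in the window, marked in green, stands at 373, above the second at 93.8.

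The other Cbfb scores of the window were far lower. The next score, 5.15 at 60818109, ranked 2129 with 3.36-fold (lower bound 0.776). After it came 4.84 at 60955389, beside Foxp3 interval 4, and 4.66 at 60950426 with 2.14-fold. Without the strongest position, 3 of the remaining 37 (8.11%) were among the 10000 highest scores of the library, against 8.23% of passing positions genome-wide. Likewise 3 of 37 (8.11%) reached 20-fold, each at 23.5, against 5.11% genome-wide. These shares are near the genome's. Of the 38 sites with Cbfb, 24 (63.2%) held no Elf1 or Ets1 position of either cell type, 12 held Treg Elf1 or Treg Ets1, and 6 held both of these. The genome share of such sites was not computed, so these counts are not read as particular to the window. Of the 38 passing Cbfb positions, 25 had a lower bound of the fold under 1.

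Shared Elf1 positions were more common in the window than in the genome. Of the 95 Treg Elf1 positions 27 had a CD4 Elf1 position within 200 bp, 28.4% (95% exact Clopper-Pearson interval 19.6 to 38.6), against 11.4% over the genome. Of the 41 CD4 Elf1 positions 25 had a Treg counterpart, 61.0% (44.5 to 75.8), against 32.5%. For Ets1, 14 of 70 Treg positions had a CD4 counterpart, 20% (11.4 to 31.3), against 18.7%, and 16 of 40 CD4 positions a Treg counterpart, 40% (24.9 to 56.7), against 27.7%. Both Ets1 intervals contain the genome share. The intervals cover counting error only and treat neighbouring positions as independent, and the window is denser than the genome in every list, which was not adjusted for.

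At shared positions the fold enrichment of Elf1 was mostly higher in Treg, and that of Ets1 was mixed. The median Treg over CD4 log2 ratio was 0.85 for Elf1 over 27 positions (SD over positions 1.83), with 9 lower in Treg (33.3%), against a genome median of -0.17 and 57.7% lower. The 27 positions matched 25 CD4 positions, so some share a counterpart. Limited to a lower bound of at least 1 in both libraries, the Elf1 median was -0.016 over 15 positions, so its sign depends on positions with a lower bound under 1. For Ets1 the median was -0.10 over 14 positions (SD 1.27), with 8 lower in Treg (57.1%), against -0.44 and 68.5% genome-wide. Depth and control of the libraries are unknown, so the ratios compare libraries.

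The Elf1 ratios of the window covered a wide range. The highest, 4.87, was at 60970177 in the middle stretch, where Treg Elf1 had 26.9-fold (lower bound 7.41) and CD4 Elf1 0.920-fold (lower bound 0.132). The next, 4.47, was at 60766288 near the start of the window. Treg Elf1 had 36.7-fold there (lower bound 5.70) and CD4 Elf1 1.66-fold (lower bound 0.00212). The lowest was the -2.77 beside the strongest Cbfb position, followed by -2.24 at 61031012, with 8.04-fold in Treg and 38.1-fold in CD4. The 6 Ets1 ratios of the first stretch ran from -1.71 at 60807733 to 1.00 at 60816810, and 4 of them were below 0.

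**Figure D5:**
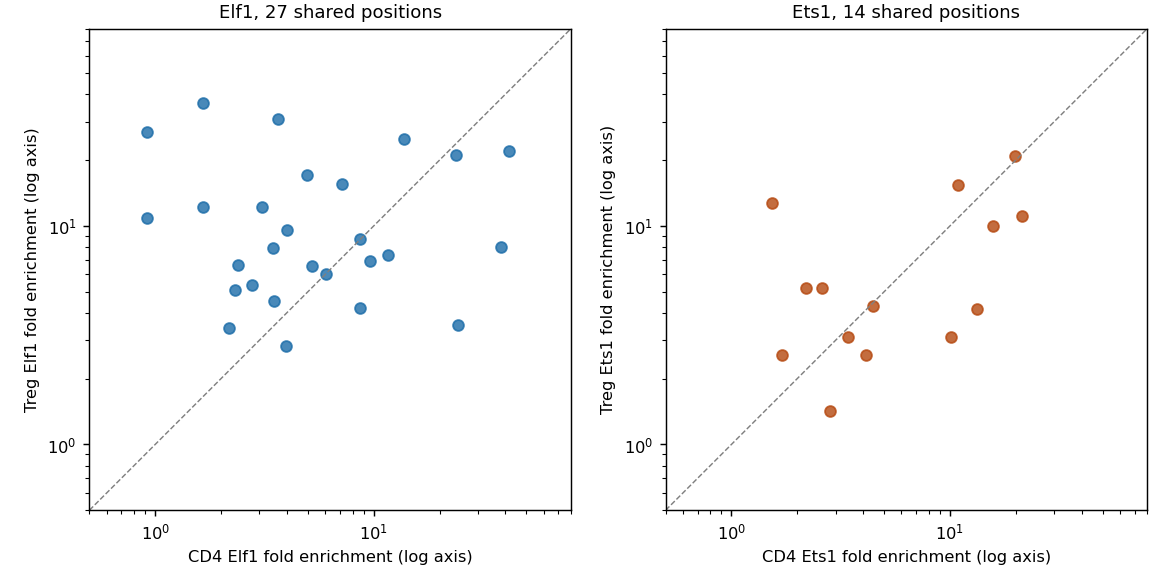
Fold enrichment in Treg (y axis, log) against CD4 (x axis, log) at the 27 shared Elf1 and 14 shared Ets1 positions of the window, with the line of equal values. For Elf1 18 points lie above the line and for Ets1 6, one of them far above it at 12.8-fold in Treg and 1.54-fold in CD4.

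Positions with no counterpart of any FDR within 1 kb in the other cell type made up a smaller share of the window than of the genome. They were 27 of 95 Treg Elf1 positions (28.4%, genome 65%) and 6 of 41 CD4 Elf1 positions (14.6%, genome 49.4%). For Ets1 they were 10 of 70 Treg positions (14.3%, genome 51.7%) and 3 of 40 CD4 positions (7.5%, genome 39.2%). As above, the greater density of positions in the window was not adjusted for.

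The best score rank of these one-sided positions was 7402, and their folds ran from 0.552 to 22.0. The highest score among those of Treg Elf1 was at 60959741 with 3.75-fold (rank 7402), and the highest fold was 17.1 at 60930192 (lower bound 2.03, rank 81918). In CD4 Elf1 the highest score was at 60910380 with 4.50-fold (rank 10972), and the highest fold was 10.5. Treg Ets1 had its highest such score at 60977644 with 3.60-fold (rank 11268), and its highest fold, 22.0 at 60952724 (lower bound 3.14, rank 32975), lay in the middle stretch. For CD4 Ets1 the highest score was at 61049634 with 3.64-fold (rank 13077), and the highest fold was 6.88. The CD4 Ets1 position had a CD4 Elf1 position 18 bp away with 3.64-fold. None of the 4 positions with the highest scores lay within 1 kb of a Foxp3 interval.

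Besides the 7 sites with Foxp3, 8 sites held 4 libraries. At 5 of them, starting at 60805392, 60838527, 60939822, 60967620 and 61031012, these were Elf1 and Ets1 of both cell types. The one at 60939822 was the strongest in Treg Elf1, with 25.0-fold (rank 1903) against 13.8-fold in CD4, and the one at 61031012 the most enriched in CD4 Elf1, with 8.04-fold in Treg against 38.1-fold in CD4. At the other 3 sites, starting at 60964408, 60969139 and 60970177 in the middle stretch, Cbfb was present in place of CD4 Ets1. Apart from the strongest Cbfb position, the Cbfb fold at these sites was 2.61 at 60964561 and 2.03 at 60970361, both with lower bounds under 1.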

How the data were processed

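The submitters' processing notes name Bowtie 0.12.7 and mm9. For each of 5 libraries the deposited file lists point positions. Per the file headers each position has a score, an FDR (used as a q-value) and the fold enrichment, a ratio, in 2 columns that hold the maximum likelihood estimate and a lower bound. An E-value column was left unused. The authors deposited Foxp3 as intervals with no score, pooled over replicates per the labels. The peak caller, its cutoffs and which control the enrichment was computed over are not given in the sources used here. Read depth is unknown. Input and CD4 Cbfb libraries were not analysed here.

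Positions with an FDR of at most 0.01 inside the window were kept. Positions were called shared within 200 bp, the distance for Foxp3 intervals was the same, and ranks were taken over each whole list. Tiles covered the numbered chromosomes and X. The functions were tested with counterparts planted on the real Treg Elf1 list, thinned to well separated positions. Dense neighbouring positions, as in this window, were not part of that test. Named positions are the Foxp3 intervals, the highest score and fold of each library, sites with at least 4 libraries, the highest one-sided Elf1 and Ets1 positions, and positions among the 1000 highest scores. Others, such as the extreme ratios, the one-sided positions of highest fold, the next Cbfb scores and the chromosome 4 and X positions, were chosen after their values were seen. The window, members and lists were chosen with earlier results of these data known. The other genes of the pathway were not located, since no mm9 annotation was used. Python 3.11.15, numpy 2.4.6, pandas 2.3.3, scipy 1.17.1 and matplotlib 3.10.9 were used.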

Additional observations from a re-analysis of the deposited data

How the results depend on the processing

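Each comparison rests on 1 library per group, and list lengths, scores and folds cannot be set against depth. Of 106 recomputed values 60 stayed close to the reported one by a loose rule. For counts it let in 67 Treg Elf1 positions with the window 50 kb shorter at each end, against 95. It also let in 121 joined sites at 500 bp, against 179. For shares and medians it let in any value inside the interval around the reported one. No paired analysis was possible because no library of the 5 lists has a replicate and the Foxp3 list is pooled.

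Most of the rest follow from shorter or longer lists by construction. In the order Treg Elf1, Treg Ets1, Treg Cbfb, CD4 Elf1, CD4 Ets1, the 10000 highest scores left 18, 24, 4, 6 and 11 positions in the window and the 20000 highest 32, 33, 6, 19 and 23. An FDR of at most 0.001 left 34 Treg Ets1, 16 Treg Cbfb, 22 CD4 Elf1 and 23 CD4 Ets1 positions, and all deposited positions gave 143 Treg Ets1, 105 CD4 Elf1 and 131 CD4 Ets1. A lower bound of the fold of at least 1, a choice made after seeing the data, left 45 Treg Ets1, 13 Treg Cbfb, 19 CD4 Elf1 and 25 CD4 Ets1. With the window 50 kb shorter at each end 25 Treg Cbfb and 23 CD4 Ets1 positions remained.

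Joined sites numbered 113 at an FDR of at most 0.001, 308 with all positions, 44 and 70 with the 10000 and 20000 highest, and 106 with the lower bound limit. Sites with at least 4 libraries numbered 9 at a distance of 100 bp, 9 at the stricter FDR, 1 and 7 with the 10000 and 20000 highest, and 5 with the lower bound limit.

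The Elf1 share of Treg positions with a CD4 counterpart was 18.9% at 100 bp and 38.9% at 500 bp. It was 11.1% with the 10000 highest (2 of 18 positions) and 40.6% with the 20000 highest (13 of 32). The Ets1 share was 32.9% at 500 bp and 38.5% with all positions. Genome shares were not computed at these settings, so whether the contrast of window and genome holds there is not known. The Elf1 median log2 ratio changed sign to -0.016 with the lower bound limit. The Ets1 median changed sign to 0.34 when centred on all shared positions, whose own median was -0.44. Foxp3 intervals with Cbfb numbered 2 with the 10000 highest, 2 with the 20000 highest and 2 with the lower bound limit, and those with CD4 Elf1 numbered 3 with the 10000 highest. The strongest Cbfb position ranked 2 by fold enrichment. The causes of the changed signs were not tested.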
